A study of Mus musculus with 6 samples.

Results

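The genes described here are 8 chemokines of the CXC and CX3C families that lie outside the neutrophil-attracting group, namely Cxcl9, Cxcl10, Cxcl11, Cxcl12, Cxcl13, Cxcl14, Cxcl16 and Cx3cl1. They were taken by gene name, without use of their values, from the 49548 genes listed for cultured mouse synovial fibroblasts (SFs), the connective tissue cells of the joint lining. The SFs came from ankle joints of 8-week-old mice transgenic for human TNF (hTNFtg), in which arthritis develops, on a mixed CBA and C57BL/6J background, and cells bearing CD45, the pan-leukocyte antigen, were removed during culture. All 6 libraries carried the transgene. The 3 libraries that the labels give as untreated, and the study's methods as vehicle-treated, were compared with 3 given 500 μM amisulpride, an antipsychotic that blocks dopamine receptors, for 48 hours. The comparison asks which transcripts of SFs under chronic TNF respond to the drug, at 1 dose and 1 time point and with no library from mice without the transgene used here.

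Chemokines are small secreted or membrane-tethered proteins that direct leukocyte migration through G protein-coupled receptors. Cxcl12 and Cxcl14 are made constitutively by many stromal cells, and Cxcl13 guides B cells into lymphoid follicles. Cxcl9, Cxcl10 and Cxcl11 are induced by interferons and attract activated T cells through Cxcr3, whereas Cxcl16 and Cx3cl1 are made as transmembrane proteins that metalloproteinases can release from the cell surface. In inflamed synovium these ligands are known for recruiting and retaining lymphocytes and monocytes.

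The promoters of 6 of the 8 genes were found in RefSeq sequences of build GRCm38.p6, each spanning 250 bases before to 50 bases after the gene start. They were searched on both strands for 3 motifs of factors known to act on chemokine genes. A short form of the interferon response element, spelled GAAA, any 2 bases and GAAA, was present in 3.44% of 32851 promoters and in those of Cxcl10 and Cxcl14. A STAT-type element, spelled TTC, any 3 bases and GAA, was present in 8.3% of promoters and only in that of Cxcl14 among these 6. A loose form of the kappa B site bound by NF-kB, spelled GGG, any 5 bases and CC, was present in 50.8% of promoters, among them those of Cxcl9, Cxcl10, Cxcl12 and Cxcl13. The stretches below hold the matches of Cxcl9, Cxcl10 and Cxcl14, and set 2 interferon-induced ligands beside a constitutive chemokine. The window of Cxcl9 held kappa B-type matches only, with no interferon-type or STAT-type match. Capitals mark the matched letters, and adjoining or overlapping matches are joined. The stretches lie on the minus strand, that of Cxcl9 at chr5:92328187-92328221, that of Cxcl10 at chr5:92348971-92349114 and that of Cxcl14 at chr13:56296702-56296754.
Cxcl9: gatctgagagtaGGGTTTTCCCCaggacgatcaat
Cxcl10: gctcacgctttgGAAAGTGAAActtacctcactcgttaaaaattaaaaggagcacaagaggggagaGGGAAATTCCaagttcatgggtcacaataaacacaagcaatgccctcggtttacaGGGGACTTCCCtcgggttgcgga
Cxcl14: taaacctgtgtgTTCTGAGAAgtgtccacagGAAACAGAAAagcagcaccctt
In the Cxcl10 stretch the interferon-type match begins 213 bases before the gene start and lies upstream of both kappa B-type matches, which begin 159 and 104 bases before it. In Cxcl14 the STAT-type match, which reads as a match on either strand, begins 191 bases before the start and precedes the interferon-type match at 172 bases. A match describes the letters in the window and not occupancy by a factor, which was not measured here.

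The 3′ end libraries held approximately 2.52 to 4.72 M reads each, the depth of untreated replicate 1 being uncertain, and 16851 to 18364 genes had a value above 0. Values are the authors' normalised counts, which were assumed to be read counts scaled by 1 factor per library. A floor of 3 reads corresponded to 2.50 to 5.37 normalised counts, and covers counting error only. Amisulpride replicate 3 had the fewest reads, the fewest genes above 0 and the highest floor. In the alternative fit with a weight for each library its weight was the lowest, at 0.369 against 0.736 to 1.70. The 12 fibroblast markers were all measured, with sums of 45038 to 59724 normalised counts in untreated and 51715 to 91379 in amisulpride-treated libraries. Of 11 myeloid markers 10 were tested, with sums of 2282 to 4023 untreated and 2091 to 4034 treated, mostly from Lyz2. None of 7 endothelial markers reached the test (sums of 2 to 17), with Cdh5 and Cldn5 at 0 in all libraries, and 7 of 9 lymphoid markers stood at 0 in all libraries. The lymphoid marker that was tested, Cd3d of the T cell receptor complex, had 30, 26 and 18 normalised counts untreated and 16, 33 and 11 treated, and did not pass. Of 6 mural cell markers 3 were tested, with sums of 251 to 399 untreated and 189 to 266 treated. Of these 0 rose and 1 fell past the study's thresholds (2.69% and 3.01% of all genes tested). The thresholds are at least 2-fold in either direction together with an unadjusted p under 0.05. The gene that fell was Mcam, an adhesion molecule of pericytes (112, 122 and 184 against 53, 47 and 57). Its log2 fold change was -1.37 ± 0.29 (SE, limma adjusted p = 0.0764, or 0.0191 with the replicate number as a block). Notch3 (-0.08) and Cspg4 (0.21) did not pass. The part of mural cells in the results was not tested. Of the 12 fibroblast markers 7 had positive and 5 negative log2 fold changes, and 0 passed without the block. Prg4 had 915, 859 and 733 against 426, 304 and 653 (-0.92 ± 0.29 SE, limma adjusted p = 0.251), and its groups did not overlap. Lum had 213, 546 and 168 against 142, 290 and 50 (-1.07 ± 0.58 SE, limma adjusted p = 0.541), and passed the study's thresholds with the block. In such bulk samples fewer cells of a type and less RNA per cell cannot be told apart.

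The SFs expressed Cxcl12 and Cxcl14 at very high levels, Cxcl16 and Cx3cl1 at intermediate levels and the interferon-type ligands at low levels, while Cxcl13 was at or under the floor. None of the 7 chemokines that could be tested passed the study's thresholds in a limma model over all genes. By comparison, 5.7% of the 12614 genes tested passed them, 2.69% higher and 3.01% lower. Also by limma, 0 of the 7 had an adjusted p under 0.05 (0.285% of all genes) and 0 had an unadjusted p under 0.05 (10.9% of all genes), and these counts were 0 also with the replicate number as a block, a fit in which 6.61% of all genes passed the study's thresholds (3.18% higher, 3.43% lower) and 2.08% had an adjusted p under 0.05. The log2 fold changes of 6 were positive and that of Cxcl16 was negative, with a median of 0.27 against 0.00 over all genes tested. In none of the 7 were the 3 treated values all above or all below the 3 untreated values, a separation seen in 16.5% of all genes tested (7.8% higher, 8.66% lower).

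**Figure D1:**
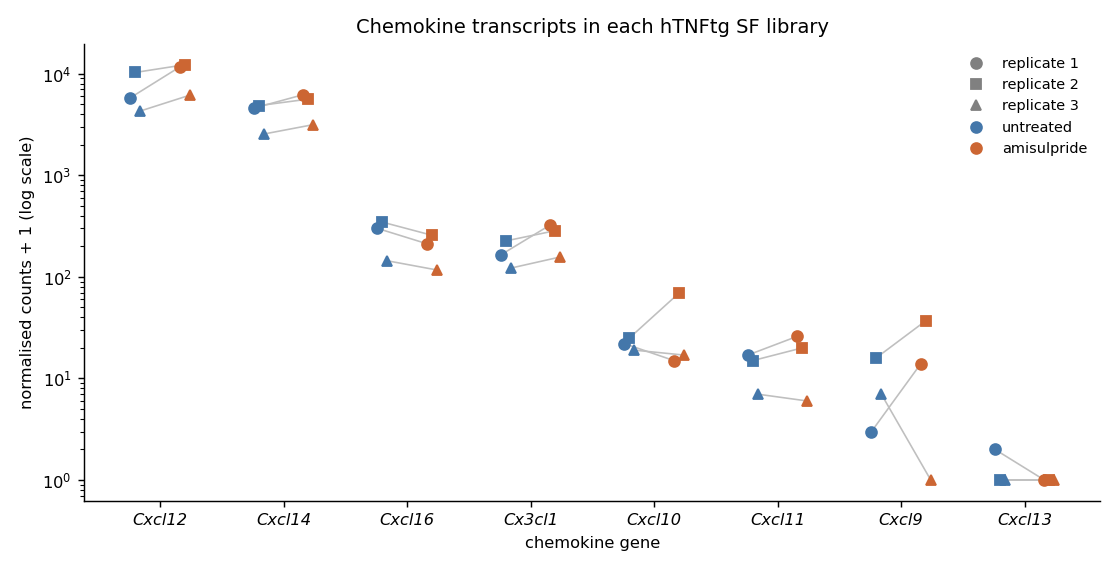
Normalised counts of the 8 chemokines in each of 6 hTNFtg SF libraries, on a logarithmic axis after adding 1, where colours are groups, symbols are replicate numbers and grey lines join the libraries of 1 number. Cxcl12 and Cxcl14 stand between 2547 and 12254, Cxcl16 and Cx3cl1 between 116 and 345, and the remaining 4 at or below 68.

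Cxcl12, the ligand of Cxcr4 that retains lymphocytes and stem cells in stromal niches, was the most abundant of these chemokines (ENSMUSG00000061353, chr6:117168535-117181367, plus strand, mm10). It was measured at 5805, 10291 and 4294 normalised counts in untreated replicates 1 to 3 and at 11669, 12254 and 6143 in amisulpride replicates 1 to 3. The treated library of each replicate number was above its untreated counterpart, yet untreated replicate 2 was above amisulpride replicate 3, so that the groups overlapped. The means were 6797 ± 3119 and 10022 ± 3372 (SD, n = 3), which is a log2 fold change of 0.59 ± 0.39 (SE, limma adjusted p = 0.625). The 95% interval of this difference ran from 0.836-fold to 2.72-fold. Within replicate numbers 1, 2 and 3 the treated library was higher by 1.01, 0.25 and 0.52 on the log2 scale, and with the replicate block the adjusted p was 0.387. Among all genes tested its group mean lay at percentile 99.6 without and 99.7 with amisulpride.

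Cxcl14, a chemokine of epithelium and stroma that acts on monocytes and dendritic cells, followed as the other abundant member (ENSMUSG00000021508, chr13:56288647-56296551, minus strand). Its normalised counts were 4583, 4852 and 2547 in the untreated and 6224, 5622 and 3151 in the treated libraries. Replicate 3 was the lowest of both groups, and its treated value lay below untreated replicates 1 and 2, so the groups overlapped. The means of 3994 ± 1260 and 4999 ± 1628 (SD, n = 3) gave a log2 fold change of 0.32 ± 0.35 (SE, limma adjusted p = 0.783), with a 95% interval from -0.45 to 1.09. The differences within the replicate numbers were 0.44, 0.21 and 0.31 on the log2 scale, and the limma adjusted p with the replicate block was 0.642.

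Cxcl12 and Cxcl14 together made up 95.4%, 96.0% and 95.9% of the summed normalised counts of the 8 chemokines in untreated libraries and 96.8%, 96.4% and 96.9% in treated ones. Cxcl12 alone supplied 53.3% to 65.3% of the sum without and 63.1% to 66.1% with the drug. These shares refer to reads from transcript 3′ ends, whose number is not expected to scale with transcript length, and not to protein. In the order of levels the ranges of Cxcl12 and Cxcl14 over the libraries overlapped each other in both groups and were separated from all other members. Within each of the 6 libraries Cxcl12 was above Cxcl14, at a ratio of 1.27 to 2.18. Cxcl13, the homeostatic B cell chemoattractant (ENSMUSG00000023078, chr5:95956951-95961068, plus strand), had 1 normalised count in untreated replicate 1 and 0 in the other libraries, all under the floor, so it could not be tested and its transcript was not detectable at this depth.

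Cx3cl1, or fractalkine, tethers Cx3cr1-bearing monocytes when on the membrane and attracts them when shed (ENSMUSG00000031778, chr8:94772009-94782427, plus strand). It was measured at 164, 225 and 121 normalised counts in untreated libraries and at 324, 284 and 156 after amisulpride. Treated replicates 1 and 2 were the highest of the 6 libraries, and treated replicate 3 was below untreated replicates 1 and 2. The means were 170 ± 52.3 and 255 ± 87.8 (SD, n = 3), for a log2 fold change of 0.56 ± 0.33 (SE, limma adjusted p = 0.586) and a 95% interval from -0.18 to 1.29. Within the replicate numbers the differences were 0.98, 0.33 and 0.36, and the adjusted p with the replicate block was 0.347.

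Cxcl16, a transmembrane ligand of Cxcr6 that also takes up oxidised lipoprotein, was the member with a negative fold change (ENSMUSG00000018920, chr11:70453983-70459984, minus strand). Its values were 299, 345 and 143 normalised counts without and 211, 256 and 116 with the drug. The untreated library was the higher one within every replicate number, by 0.50, 0.43 and 0.30 on the log2 scale, while untreated replicate 3 lay below treated replicates 1 and 2. The means of 262 ± 106 and 194 ± 71.5 (SD, n = 3) gave a log2 fold change of -0.41 ± 0.38 (SE, limma adjusted p = 0.743), with a 95% interval from -1.25 to 0.43. With the replicate block the SE was 0.25 and the limma adjusted p was 0.492. Cxcl16 overlaps Zmynd15 on the opposite strand, which held 0 to 8 normalised counts. Cxcl16 and Cx3cl1 overlapped in level in both groups, with the mean of Cxcl16 the higher one in untreated and that of Cx3cl1 the higher one in treated libraries.

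Counting the replicate numbers, 4 of the 7 tested members (57.1%) had the same direction within all 3 numbers, Cxcl12, Cxcl14 and Cx3cl1 upward and Cxcl16 downward, against 34.7% of all genes tested. In each of the 4 the untreated and treated ranges overlapped, and the library with replicate number 3 was the lowest of both groups.

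Because Cxcl16 had the opposite sign to the other abundant members, ratios within a library were taken. These do not depend on the library's scaling if it is 1 factor for all genes, as assumed above. They were chosen after the values had been seen and carry no test. The ratio of Cxcl12 to Cxcl16 was 19.4, 29.8 and 30.03 in untreated and 55.3, 47.9 and 53.0 in treated libraries. That of Cxcl14 to Cxcl16 was 15.3, 14.1 and 17.8 against 29.5, 22 and 27.2. Cx3cl1 to Cxcl16 stood at 0.548, 0.652 and 0.846 without and at 1.54, 1.11 and 1.34 with the drug. In each of these 3 ratios all treated libraries lay above all untreated ones, although none of the 4 genes separated the groups by itself. Such a separation upward was found for 6.23% of all genes tested when divided by Cxcl16. That share is over genes not chosen by direction. The 3 ratios have the same denominator and were taken for its opposite sign, so the share cannot judge them. Cx3cl1 and Cxcl12 kept a narrow proportion to each other, with 0.0219 to 0.0283 normalised counts of Cx3cl1 for each of Cxcl12 over all 6 libraries.

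**Figure D2:**
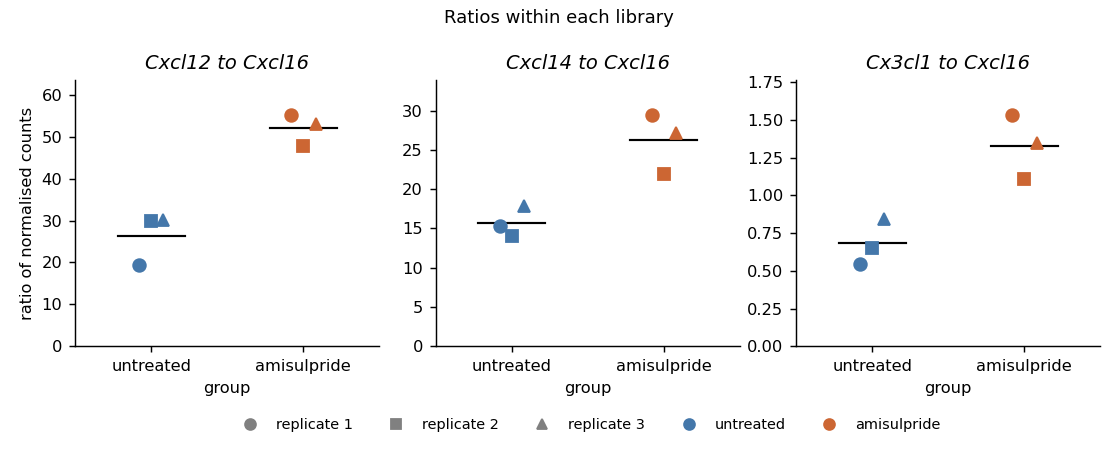
Ratios of normalised counts within each library, on linear axes from 0, for Cxcl12, Cxcl14 and Cx3cl1 over Cxcl16. Points are the 3 untreated and 3 amisulpride-treated hTNFtg SF libraries, and bars are group means. The treated libraries lie above the untreated ones in each panel, as for Cx3cl1 over Cxcl16 at 1.11 to 1.54 against 0.548 to 0.846.

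The interferon-type ligands are neighbours on chromosome 5 and span 44.1 kb on the minus strand. Cxcl9 (ENSMUSG00000029417, chr5:92321347-92328079), the ligand most tied to interferon gamma, had 2, 15 and 6 normalised counts in untreated and 13, 36 and 0 in treated libraries. Amisulpride replicate 2 was the highest and replicate 3 the lowest of all 6 libraries, so the treated group spanned the untreated one. The values of untreated replicate 1 and amisulpride replicate 3 were under the floor. The means were 7.67 ± 6.66 and 16.3 ± 18.2 (SD, n = 3), with a log2 fold change of 0.21 ± 1.18 (SE, limma adjusted p = 0.964) and a 95% interval from -2.37 to 2.79.

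Cxcl10 (ENSMUSG00000034855, chr5:92346638-92348889), which interferons and NF-kB both induce, was even in the untreated libraries, at 21, 24 and 18 normalised counts. In treated libraries it stood at 14, 68 and 16. Only amisulpride replicate 2 was above the untreated range, and the other two were below it. The means of 21.0 ± 3.00 and 32.7 ± 30.6 (SD, n = 3) gave a log2 fold change of 0.25 ± 0.56 (SE, limma adjusted p = 0.897), which turned to -0.45 without amisulpride replicate 2.

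Cxcl11 (ENSMUSG00000060183, chr5:92359544-92365485), a high-affinity Cxcr3 ligand that Ackr3 also binds, is annotated in the deposited table as a polymorphic pseudogene, so its reads need not stand for a protein in these mice. It had 16, 14 and 6 normalised counts in untreated and 25, 19 and 5 in treated libraries. Replicate 3 was the lowest of either group, and its treated value was under the floor. The means were 12 ± 5.29 and 16.3 ± 10.3 (SD, n = 3), for a log2 fold change of 0.27 ± 0.64 (SE, limma adjusted p = 0.909). Cxcl10 and Cxcl11 lie within Art3 on the opposite strand, which held 2 to 9 normalised counts, and the sources used here do not state whether counting used strand.

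Summed, the interferon-type ligands held 39, 53 and 30 normalised counts in untreated and 52, 123 and 21 in treated libraries. Interferon-stimulated genes of other function were measured beside them. Of 22 listed, 17 were tested, 2 rose past the study thresholds and 0 fell, where 2.69% of all genes tested rose and 3.01% fell. The median log2 fold change of the 17 was 0.47 against 0.00 over all genes tested. With the replicate block 4 rose and 1 fell (3.18% and 3.43% of all genes tested). Without amisulpride replicate 3 the number that rose was 7, in a fit where 774 of 12382 genes tested passed in either direction. Ifi44, an interferon-induced cytoplasmic protein, had 31, 45 and 42 normalised counts without and 48, 143 and 177 with amisulpride, a log2 fold change of 1.44 ± 0.44 (SE, limma adjusted p = 0.235). Psmb9, an immunoproteasome subunit, had 94, 38 and 35 against 117, 213 and 122, a log2 fold change of 1.51 ± 0.40 (SE, limma adjusted p = 0.166). The groups did not overlap in either gene, a separation upward seen in 7.8% of all genes tested. With the replicate block the limma adjusted p was 0.0315 for Ifi44 and 0.0349 for Psmb9.

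Within the treated group the libraries stood apart from one another. The median shift of the 17 interferon-stimulated genes from the untreated mean was 0.30, 1.42 and -0.22 on the log2 scale in amisulpride replicates 1 to 3, against -0.30, 0.52 and -0.47 in untreated replicates 1 to 3. In 11 of the 17 the highest of all 6 values was that of amisulpride replicate 2, the library in which Cxcl9 and Cxcl10 were also highest. Isg15, a ubiquitin-like modifier, had 77, 92 and 84 normalised counts untreated and 90, 336 and 47 treated. Ifit1, which binds foreign RNA, had 40, 53 and 23 against 51, 158 and 16. Neither passed the thresholds. Of 17 genes of interferon signalling, the receptors, STATs and interferon regulatory factors among them, 15 were tested and 0 passed (5.7% of all genes). By limma 0 of the 15 had an unadjusted p under 0.05 (10.9% of all genes), and the median log2 fold change was -0.04. Without amisulpride replicate 1 there was 1 gene higher and 1 lower past the thresholds, where 1000 of 12328 genes tested passed in either direction. Without amisulpride replicate 2 there was 1 lower, where 730 of 12335 passed. The transcripts of Ifnb1 and Ifng, which encode interferon beta and gamma, were at 0 in all 6 libraries.

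**Figure D3:**
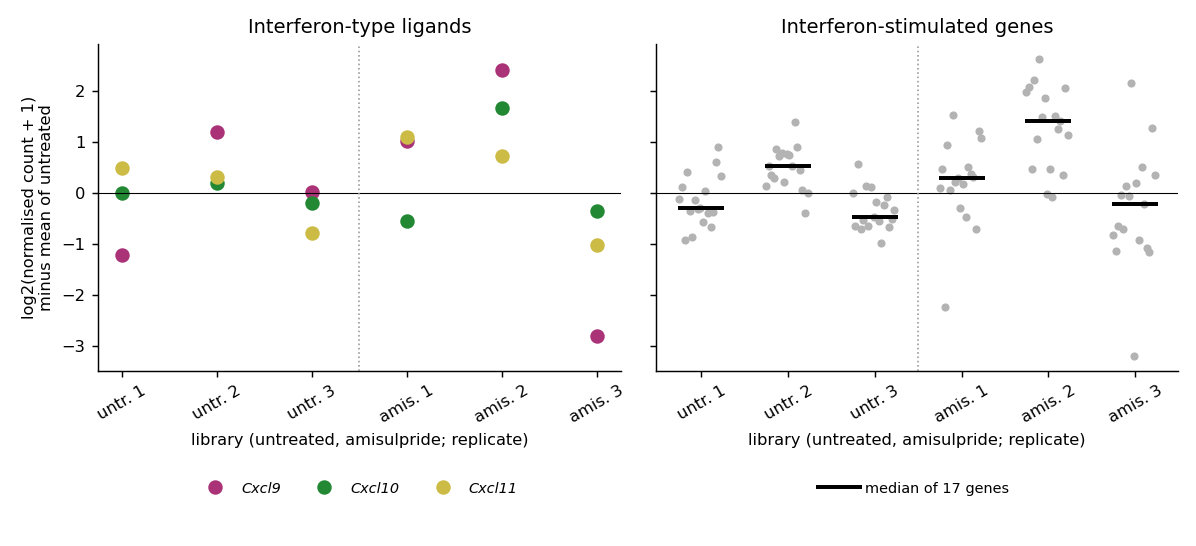
Shift of log2(normalised count + 1) from the mean of the 3 untreated libraries, for Cxcl9, Cxcl10 and Cxcl11 (left) and 17 interferon-stimulated genes (right, where points are genes and bars their median), in each hTNFtg SF library. Amisulpride replicate 2 has the highest median, at 1.42, and replicate 3 the lowest of the treated group, at -0.22.

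The receptors of these chemokines were mostly scarce in SF cultures, 3 of 8 being tested. Of these 1 rose and 0 fell past the study thresholds (2.69% and 3.01% of all genes tested). Ackr3, a scavenger receptor that binds and internalises Cxcl12 and Cxcl11, had 185, 286 and 114 normalised counts in untreated and 452, 360 and 319 in treated libraries. All treated values were above all untreated ones, and the means were 195 ± 86.4 and 377 ± 68.1 (SD, n = 3). The log2 fold change was 1.03 ± 0.33 (SE, limma adjusted p = 0.252), and it fell short of the thresholds without untreated replicate 3 (0.70) or without amisulpride replicate 1 (0.89). The replicate block gave an adjusted p of 0.0653.

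Cxcr4, the signalling receptor of Cxcl12, had 21, 15 and 18 normalised counts without and 20, 4 and 4 with amisulpride, a log2 fold change of -1.22 ± 0.63 (SE, limma adjusted p = 0.518). Cx3cr1, the receptor of Cx3cl1, had 69, 45 and 47 against 62, 12 and 18, a log2 fold change of -1.10 ± 0.52 (SE, limma adjusted p = 0.482). In both receptors amisulpride replicates 2 and 3 lay below every untreated library and replicate 1 did not. The values of Cxcr4 in these 2 libraries were under the floor. With a pseudocount of 5 the log2 fold changes were -0.85 for Cxcr4 and -0.96 for Cx3cr1. Neither passed in the fit without a block, and both passed the study thresholds with the replicate block or without amisulpride replicate 1 (-1.91 for Cxcr4 and -1.77 for Cx3cr1). Both are typical of leukocytes. Of the 10 myeloid markers tested 0 rose and 2 fell past the thresholds (2.69% and 3.01% of all genes tested), and 8 did not pass. Those that fell were Cd14 and Csf1r, by 1.74 and 1.01 on the log2 scale. Log2 fold changes were positive in 4 of the 10 and negative in 6. Adgre1 (0.83) and Cd68 (0.31) were higher within all 3 replicate numbers and did not pass. The summed marker level, mostly from Lyz2, overlapped as given above. Ptprc, which encodes CD45, had 38, 12 and 18 normalised counts untreated and 23, 5 and 5 treated, and passed with but not without the replicate block. The part of myeloid cells in the values of these receptors was not tested. Cxcr3, which binds the interferon-type ligands, was at 0 in all libraries, and the receptors Cxcr5, Cxcr6, Ackr1 and Ackr4 did not reach the test, with values from 0 to 14.

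Among 10 genes of chemokine release, processing and their inhibition, 9 were tested, with a median log2 fold change of -0.33. Of these 0 rose and 2 fell past the study thresholds (2.69% and 3.01% of all genes tested). Furin, the convertase that activates proteases such as Adam10 and Adam17, had 514, 280 and 448 normalised counts in untreated and 184, 182 and 165 in treated libraries. The groups did not overlap, and the log2 fold change was -1.18 ± 0.27 (SE, limma adjusted p = 0.109, or 0.0284 with the replicate block). Mmp9, a gelatinase that cleaves several CXC chemokines, had 2658, 992 and 2581 against 638, 230 and 1337 normalised counts. Amisulpride replicate 3 lay above untreated replicate 2, and the log2 fold change was -1.70 ± 0.56 (SE, limma adjusted p = 0.265, or 0.00371 with the replicate block). Furin fell short of the thresholds without untreated replicate 1, and Mmp9 did so on its p without untreated replicate 1 or without amisulpride replicate 2.

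Adam10 and Adam17, the proteases best known for releasing Cx3cl1 and Cxcl16, had log2 fold changes of -0.11 and -0.33 and did not pass. Timp3, an inhibitor of Adam17, had 2464, 3313 and 2047 normalised counts without and 5848, 5485 and 4105 with the drug. Its groups did not overlap, and its log2 fold change of 0.99 ± 0.28 (SE, limma adjusted p = 0.197) lay just under the fold threshold of 1.

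**Figure D4:**
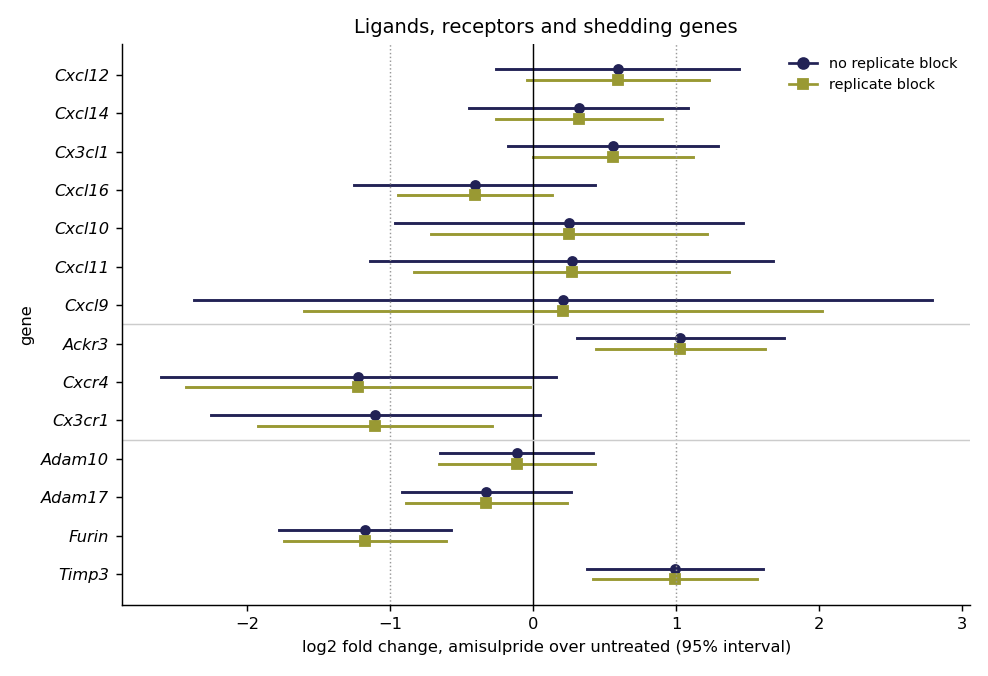
Log2 fold changes (amisulpride over untreated) with 95% intervals from limma, without (circles) and with (squares) the replicate number as a block, for the 7 tested chemokines, the 3 tested receptors, and Adam10, Adam17, Furin and Timp3 of the release genes, with dotted lines at a log2 fold change of 1 in either direction. The intervals of all 7 chemokines include 0 in both fits, that of Cxcl9 without the block being the widest at -2.37 to 2.79. Those of Ackr3, Furin and Timp3 exclude 0 in both fits. Those of Cxcr4 (-2.43 to -0.02) and Cx3cr1 (-1.92 to -0.29) exclude it with the block only.

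The non-canonical NF-kB pathway, which is known to govern Cxcl12 and Cxcl13 in lymphoid stroma, was measured by 11 genes. Of these 9 were tested, 1 rose and 0 fell (2.69% and 3.01% of all genes tested), with a median log2 fold change of 0.02. The gene that rose was Cd40, a TNF receptor family member, at 13, 6 and 4 against 32, 27 and 9 normalised counts, a log2 fold change of 1.41 ± 0.62 (SE, limma adjusted p = 0.438). Its groups overlapped, and with 1 library left out it passed only without amisulpride replicate 3. Lta and Ltb, which encode the lymphotoxins that engage this pathway, were at 0 in all libraries.

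The 7 neutrophil-attracting CXC genes were measured in the same 6 libraries, and 3 fell and 1 rose past the study thresholds (3.01% and 2.69% of all genes tested). Cxcl2, Cxcl3 and Ppbp had log2 fold changes of -1.92, -2.53 and -1.84 (limma adjusted p = 0.167, 0.0138 and 0.0982). With the replicate block their adjusted p was 0.0257, 0.000818 and 0.00537. Pf4, a platelet chemokine placed in this group by gene family, had 3.05 (limma adjusted p = 0.0764, or 0.0111 with the block). Its normalised counts were 11, 6 and 1 untreated, the last under the floor, and 31, 46 and 63 treated. The median of the 7 neutrophil-attracting genes was -0.97 against 0.27 for the 7 tested homeostatic and interferon-type members. The difference between the groups of genes was not tested.

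**Figure D5:**
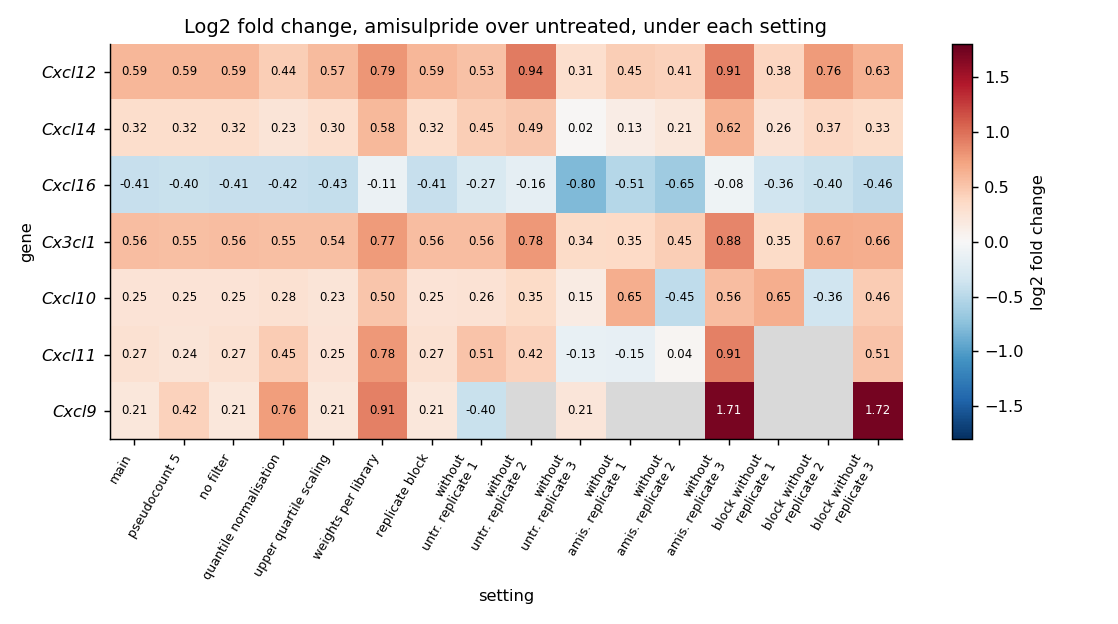
Log2 fold changes (amisulpride over untreated) of the 7 tested chemokines under each processing setting and with each library left out, where colour and number give the value and grey cells are fits in which the gene did not pass the filter. Cxcl12, Cxcl14 and Cx3cl1 are positive and Cxcl16 negative in every setting, while Cxcl9, Cxcl10 and Cxcl11 change sign.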

How the data were processed

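SFs from hTNFtg ankle joints were profiled with a QuantSeq 3′ kit on an Ion Proton. The authors mapped reads to mm10 with TopHat2 and then Bowtie2, counted them per gene with GenomicRanges and normalised them through metaseqr, testing with DESeq, at versions not given in the sources used here. What the authors deposited was taken to be a score: a gene's reads over a scaling factor for its library, rounded to integers. Because of this rounding no count model was used. Their own p-values, adjusted p-values, fold changes and GC content, and 12 further columns holding these libraries' values on other scales, were left out.

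Values plus a pseudocount of 1 were log2 transformed and compared in R 4.3.3 with limma 3.58.1, whose moderated variances followed the mean-variance trend. Only genes reaching 10 in 3 or more of the 6 libraries were tested. Tests were two-sided, and adjusted p-values are Benjamini-Hochberg values over all 12614 genes tested. Fold changes on this scale understate those of low genes. An exact permutation test of 3 against 3 cannot go below 0.1 and was not used. The depth and floor of each library were estimated from the spacing of low values, by a likelihood that separated the candidate steps least well in untreated replicate 1. No source says which libraries share a culture or animal, although the study calls them biological replicates. Libraries with the same replicate number deviated together (correlations of 0.229, 0.240 and 0.201 across genes, and -0.149 to -0.078 between different numbers). The numbers were therefore taken to pair the libraries in a second fit, with the number as a block. SEs, intervals and p-values are from the fit without a block unless the block is named. The block fit is given for genes whose call at the study thresholds it changed, and for some others.

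Named genes were all 8 members, their receptors and the genes of the other lists past the study thresholds. Isg15, Ifit1, Ifit3, Usp18, Ifi47, Adam10, Adam17, Timp3, Ptprc, Adgre1, Cd68, Notch3, Cspg4, Prg4, Lum and genes given at 0 were chosen after their values were seen. The members and lists were chosen with earlier results of these data known. Promoter sequences came from RefSeq tables of GRCm38.p6. Gene positions are those of the deposited table. Alternatives were another pseudocount, no filter, quantile and upper quartile scaling, library weights, the replicate block and leaving out each library. The block without each replicate number was added after seeing the data.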

Additional observations from a re-analysis of the deposited data

How the results depend on the processing

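Over 15 alternatives Cxcl12 (0.31 to 0.94 on the log2 scale), Cx3cl1 (0.34 to 0.88) and Cxcl14 (0.02 to 0.62) stayed positive and Cxcl16 (-0.80 to -0.08) negative. The adjusted p of the tested members stayed at 0.139 or above in all alternatives. Unadjusted limma p-values under 0.05 arose for Cx3cl1 and Cxcl12 with library weights (0.77 and 0.79) and without amisulpride replicate 3 (0.88 and 0.91), for Cxcl12 without untreated replicate 2 (0.94) and for Cx3cl1 with the block without replicate 3 (0.66). Cxcl9 passed the study thresholds, making 1 member in place of 0, without amisulpride replicate 3 (1.71) and with the replicate block without replicate 3 (1.72). With 1 library left out the number of members past the thresholds thus ranged from 0 to 1. Signs reversed for Cxcl9 without untreated replicate 1 (-0.40), for Cxcl10 without amisulpride replicate 2 (-0.45) and with the block without replicate 2 (-0.36), and for Cxcl11 without untreated replicate 3 (-0.13) and without amisulpride replicate 1 (-0.15). With 1 library left out Cxcl9 ranged from -0.40 to 1.71, Cxcl10 from -0.45 to 0.65 and Cxcl11 from -0.15 to 0.91, and Cxcl9 failed the filter in 5 alternatives. These 3 genes lie near the floor, and the cause of each change was not tested.

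Over all genes 36 had an adjusted p under 0.05 by limma, against 57 with a pseudocount of 5, 57 with no filter, 66 with quantile normalisation, 195 with library weights and 263 with the replicate block. The block without replicate 1, 2 or 3 gave 15, 97 and 467. With 1 library left out the count ran from 0, without untreated replicate 2 or 3, to 120 without amisulpride replicate 3. Leaving out untreated replicate 1 gave 1, and leaving out amisulpride replicate 1 or 2 gave 17 or 6. The study thresholds were passed by 719 genes and by 1313 with no filter. Genes of the fixed lists past these thresholds numbered 10, where 5.7% of all genes tested passed. These lists had 3 receptors, 9 release, 15 interferon signalling, 17 interferon-stimulated, 9 non-canonical NF-kB and 7 neutrophil-attracting genes tested. With 1 library left out the number ran from 9 to 16, and over all genes from 563 to 1000. The 16 were found without amisulpride replicate 3, where 774 of 12382 genes tested passed. The replicate block changed no call of a member. In these fixed lists it brought in 5 further genes, Cxcr4 and Cx3cr1 of the receptors and Ifit3, Usp18 and Ifi47 of the interferon-stimulated genes.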

Other observations

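For each tested chemokine, the 2 protein-coding genes with the closest pattern over the 6 libraries were sought among 11035, by the root mean square difference of log2 values centred over the libraries. They describe these libraries only and carry no test. Cx3cl1 lay closest to Ttc14 (0.0626) and to Per3, a circadian clock gene (0.0912). Cxcl14 lay closest to Fth1, the ferritin heavy chain (0.0676), and to Hectd3 (0.123). Cxcl12 lay closest to Lhfpl4 (0.106) and Pdp1 (0.124), and Cxcl16 to Ears2 (0.159) and Nod1, a sensor of bacterial peptidoglycan (0.159). Of the low genes, Cxcl11 lay closest to Pcdha6 (0.128) and Ccdc94 (0.140). The neighbours of the other low genes were Numa1 (0.215) and Lrrc75a (0.226) for Cxcl10, and Klhdc7a (0.568) and Tmem117 (0.625) for Cxcl9. Between members the closest pair was Cx3cl1 and Cxcl12, at 0.146, followed by Cx3cl1 and Cxcl14, at 0.178.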
